A study of Mus musculus with 3 samples.

Results

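The Hox genes of the mouse were described by cluster and by paralogue group in whole embryos that lacked all 3 small Maf proteins or all but MafG. Members were all genes whose symbol, found through the RefSeq accession of the array probe, begins with Hox, a cluster letter from a to d and a number. There were 37 such genes, carried by 44 probes, among 16358 genes with a probe. The RefSeq table holds 43 symbols of this form, of which 39 code for proteins and 4 are non-coding. All 37 measured genes were protein-coding, and Hoxc11, Hoxd8 and the non-coding Hoxa11os, Hoxb3os, Hoxb5os and Hoxd3os1 were not analysed here.

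RNA came from whole embryos of mixed background, with 3 embryos pooled for each sample, and each group was a single 1-colour array. The groups were MafF-/-:MafG-/-:MafK-/- embryos at E10.5 (triple null), and MafF-/-:MafG+/+:MafK-/- embryos at E10.5 and at E9.5 (MafG-intact). All 3 groups therefore lacked MafF and MafK, and no embryo with intact MafF or MafK was in the comparison. With 1 array in each group no difference below was tested or has a replicate error, and "higher" and "lower" describe these 3 arrays.

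Hox genes encode homeodomain transcription factors that set the identity of positions along the body axis. In mammals they lie in 4 clusters, and genes at the same place in different clusters are paralogues that share a number. Within a cluster, low-numbered genes are switched on earlier and reach further towards the head, and high-numbered genes are switched on later and stay towards the tail, an order known as collinearity. HoxA lies on chromosome 6, HoxB on chromosome 11, HoxC on chromosome 15 and HoxD on chromosome 2, and the targeted gene Mafg is also on chromosome 11.

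All 4 clusters were measured, with 11 HoxA, 10 HoxB, 8 HoxC and 8 HoxD genes. A level is the log2 of the background-subtracted intensity minus the 75th percentile of the array, so that 0 is the 75th percentile. Levels of different probes cannot be set against each other, and each gene was compared with itself across arrays. A probe is called detected where the scanner software marked it well above background. Of the 37 genes, 33 were detected on every array, beside 12429 of all 16358 genes with a probe. The other 4 were detected on the MafG-intact E10.5 array only: Hoxb13, Hoxc12, Hoxc13 and Hoxd12. Over all probes 69.2%, 70.4% and 69.1% were detected in the triple null pool and in the MafG-intact pools of E10.5 and of E9.5. The targeted gene Mafg was undetected in the triple null pool, with a bound of at least 173-fold below MafG-intact E10.5. Xist was detected only in the MafG-intact E10.5 pool and Ddx3y, a gene of the Y chromosome, only in both others, so that the sex of the pools cannot be told apart from the group in comparisons with that array. All 3 arrays lay on 1 slide read in 1 scan.

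The upstream windows of 4 genes are shown because their genes carry the differences described below: Hoxb1 and Hoxd1 of paralogue group 1, Hoxd4, which was highest in the triple null pool, and Hoxa11, which was highest in the MafG-intact E10.5 pool. Each is the 250 bases before the RefSeq start in GRCm38.p6, on the strand of the gene, and capitals mark a match to any of 4 motifs searched on both strands.
Hoxb1, chr11:96365508-96365757, plus strand: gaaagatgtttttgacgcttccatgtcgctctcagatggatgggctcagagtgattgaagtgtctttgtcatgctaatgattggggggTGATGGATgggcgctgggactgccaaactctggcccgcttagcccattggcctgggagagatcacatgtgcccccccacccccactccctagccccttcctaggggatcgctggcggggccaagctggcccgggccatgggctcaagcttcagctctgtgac
Hoxd1, chr2:74762730-74762979, plus strand: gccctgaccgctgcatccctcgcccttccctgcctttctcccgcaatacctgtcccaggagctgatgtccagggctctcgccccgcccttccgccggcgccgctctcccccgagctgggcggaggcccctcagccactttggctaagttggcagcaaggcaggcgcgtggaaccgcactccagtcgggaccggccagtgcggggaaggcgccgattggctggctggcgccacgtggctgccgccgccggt
Hoxd4, chr2:74721728-74721977, plus strand: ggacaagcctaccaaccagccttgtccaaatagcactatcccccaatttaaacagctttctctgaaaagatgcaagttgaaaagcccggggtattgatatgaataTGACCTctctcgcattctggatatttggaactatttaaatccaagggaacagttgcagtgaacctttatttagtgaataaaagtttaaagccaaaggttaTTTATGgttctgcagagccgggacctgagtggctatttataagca
Hoxa11, chr6:52245811-52246060, minus strand: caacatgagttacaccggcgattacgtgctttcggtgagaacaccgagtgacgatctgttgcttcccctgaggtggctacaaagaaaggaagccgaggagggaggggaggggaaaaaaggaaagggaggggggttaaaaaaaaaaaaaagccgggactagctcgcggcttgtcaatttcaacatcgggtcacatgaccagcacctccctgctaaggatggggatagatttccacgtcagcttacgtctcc

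The motifs were TGATNNAT, the paired site of a Hox protein with its Pbx partner, TTTATG, a core site of Cdx proteins, AGGTCA, the repeated unit of sites for retinoic acid receptors, and TGACNNNGC, a core of the site that a small Maf binds with a CNC partner. The Hoxb1 window held TGATGGAT, which begins 162 bases before the start. As background, elements just upstream of Hoxb1 are known through which Hoxb1 protein and Pbx keep the gene on in the hindbrain. The Hoxd4 window held TGACCT, the reverse complement of AGGTCA, from 145 bases before the start and TTTATG from 45 bases before it, and no printed match overlapped another. Hoxd1 and Hoxa11 held no match in these windows. RefSeq windows were matched for 21 of the 37 genes, in 23 windows. TGATNNAT was found in 4 of the 23 Hox windows and in 7.68% of all 32851 windows, TTTATG in 5 and 10.8%, AGGTCA in 5 and 14%, and TGACNNNGC in 1, that of Hoxa6, and 10.2%. These are matches of letters and not sites shown to be bound.

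The first comparison sets the triple null pool against the MafG-intact pool of the same day, so that the loss of MafG is added to that of MafF and MafK. Hoxb1 and Hoxd1, which stand at the early-acting end of their clusters, were each higher by 2-fold or more in the triple null pool. Hoxb13 and Hoxc12, of groups 13 and 12, were lower with bounds above 2-fold, whereas Hoxa13 was on the higher side. Of the 33 genes, 6 were higher by 1.5-fold or more, beside 4.12% of all 12529 genes detected on both arrays, and 2 lower, beside 9.72%. In whole embryos, fewer cells of a type and less RNA per cell cannot be told apart.

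Hoxb1 marks the fourth rhombomere of the hindbrain, and its probe was printed 10 times on each array, which gives a spread over spots. Its level was -0.38 ± 0.05 in the triple null pool (SD over 10 spots), -1.84 ± 0.05 in the MafG-intact E10.5 pool (SD over 10 spots) and -0.45 ± 0.04 in the MafG-intact E9.5 pool (SD over 9 spots, 1 being left out as an outlier). The lowest triple null spot, at -0.46, lay above the highest MafG-intact E10.5 spot, at -1.79. The triple null pool was 2.75-fold higher than MafG-intact E10.5, and spots on an array show the spread of printing and reading and not of embryos. Among the windows printed above, that of Hoxb1 is the one with the Hox and Pbx motif. The motif was also found in windows of Hoxa2, Hoxb8 and Hoxd11, which are not printed.

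**Figure D1:**
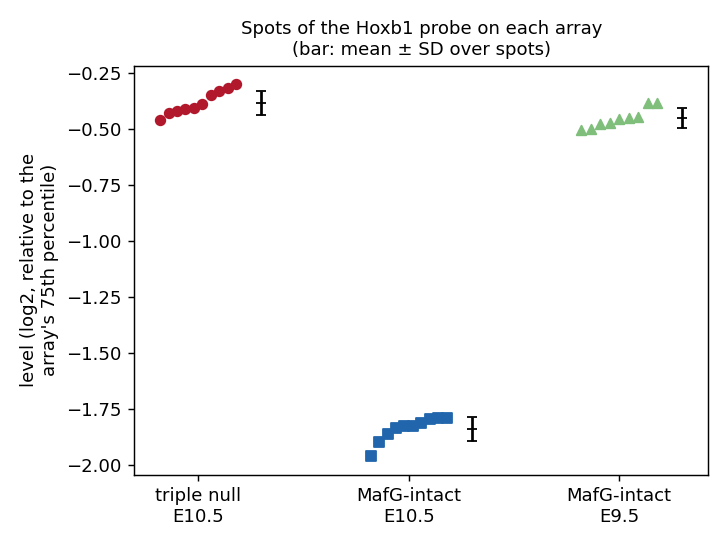
Level of each spot of the Hoxb1 probe (log2, relative to the 75th percentile of the array) on the 3 arrays, with the mean and SD over spots as a bar beside the points. The MafG-intact E10.5 spots lay at or below -1.79, and the spots of both other arrays lay between -0.50 and -0.30.

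Hoxd1, its paralogue in the HoxD cluster, had levels of -1.34 in the triple null pool, -2.48 in MafG-intact E10.5 and -1.43 in MafG-intact E9.5. It was 2.21-fold higher in the triple null pool than in MafG-intact E10.5, and 0.96 higher on the log2 scale with normexp background correction, which is under 2-fold. In all, 3 of 33 Hox genes were 2-fold or more higher, beside 0.982% of all 12529 genes. None of the 33 was 2-fold or more lower, beside 4.47% of all genes. The median over the 33 genes was 0.03, and over all genes 0.06.

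**Figure D2:**
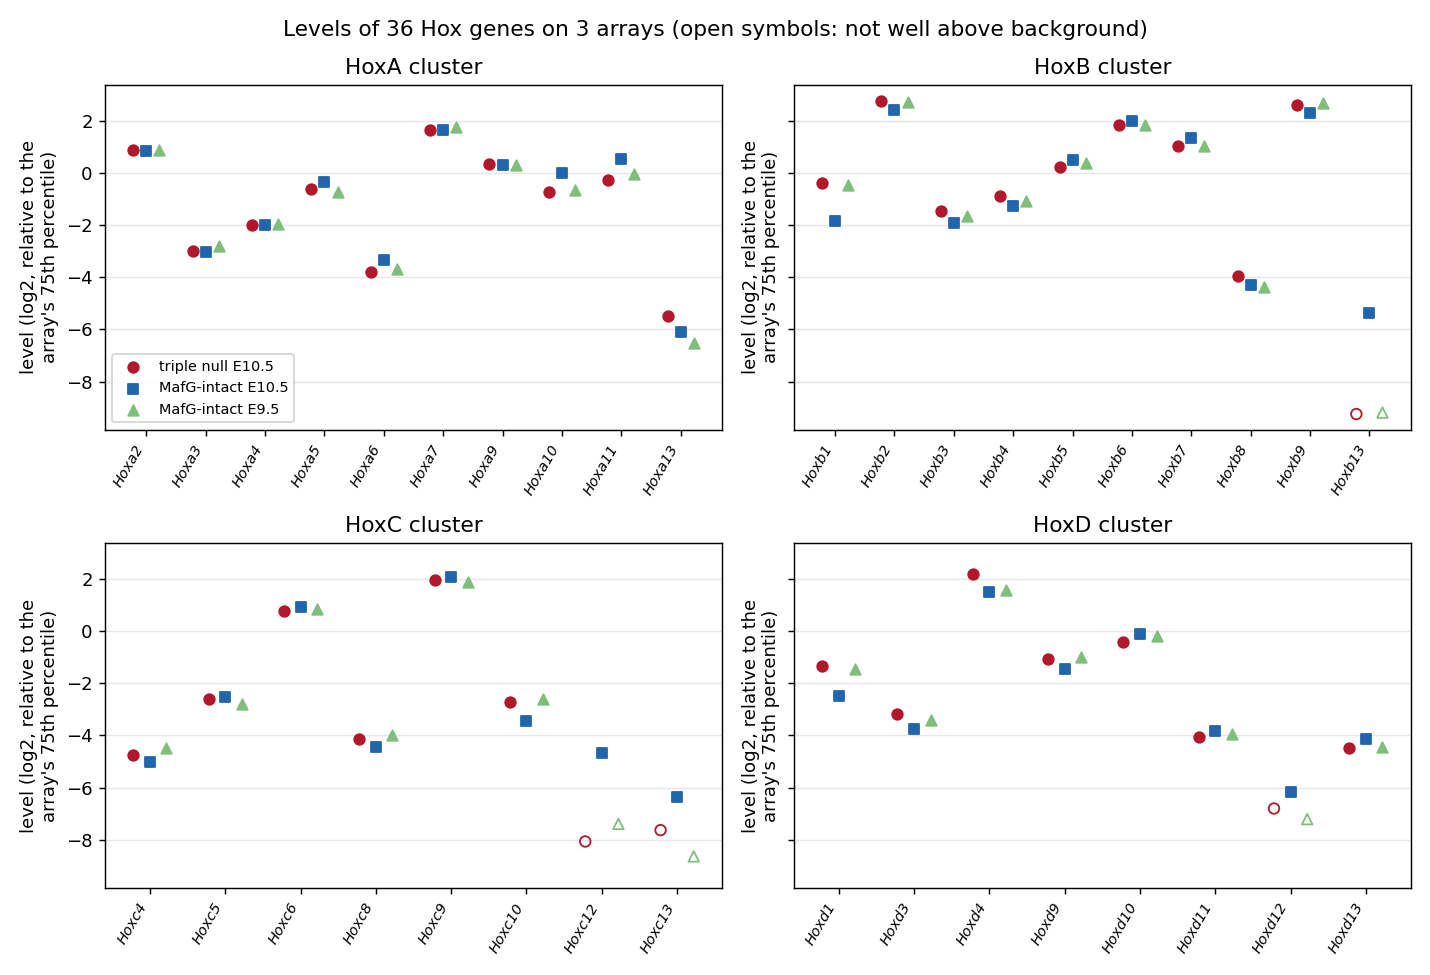
Level of 36 Hox genes (vertical axis, log2 relative to the 75th percentile of the array) in 4 panels by cluster, genes in paralogue order, with the triple null pool and the MafG-intact pools of E10.5 and E9.5 from left to right within each gene and open symbols where a gene was undetected. Hoxb1 and Hoxd1 were lowest in the MafG-intact pool of E10.5, and it was the only pool in which Hoxb13, Hoxc12, Hoxc13 and Hoxd12 were detected.

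Groups 2 and 3, which pattern the hindbrain, neural crest and neck, lay on the higher side in the triple null pool without a gene at 2-fold. Hoxb2 had levels of 2.77 in the triple null pool, 2.43 in MafG-intact E10.5 and 2.70 in MafG-intact E9.5, and Hoxb3 had -1.46, -1.91 and -1.66. Hoxd3, from 2 probes, was 0.58 higher in the triple null pool than in MafG-intact E10.5, with 0.28 for the brighter probe and 0.88 for the dimmer. Hoxa2, which specifies the second branchial arch, and Hoxa3, needed for thymus and parathyroid, both differed by 0.03. Both lay under the median over all genes, which was 0.06. All 8 anterior genes, those numbered 1 to 3, had a difference above 0, beside 7323 of all 12529 genes. With spike-in scaling Hoxa2 (-0.0502) and Hoxa3 (-0.054) lay below 0. The median of the 8 was 0.51.

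Among the genes numbered 4 to 8, which pattern the neck and thorax, the median was -0.05 over 14 genes. Hoxd4, a gene of the neck vertebrae and hindbrain, had levels of 2.19 in the triple null pool, 1.48 in MafG-intact E10.5 and 1.59 in MafG-intact E9.5. It was 1.64-fold higher than in MafG-intact E10.5 and 1.52-fold higher than in MafG-intact E9.5, so that the triple null array was the high one of the 3. Hoxb4 (0.40) and Hoxc4 (0.30) were also on the higher side in the triple null pool at E10.5, and Hoxa4 was at 0.01, or -0.0715 with spike-in scaling.

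Groups 5 to 7 lay on the other side, with differences of -0.25 for Hoxa5, which acts in lung and trachea, -0.26 for Hoxb5, -0.09 for Hoxc5, -0.15 for Hoxb6, -0.14 for Hoxc6, -0.33 for Hoxb7 and -0.01 for Hoxa7. Hoxa6 was lower by 1.41-fold. These 8 genes of groups 5, 6 and 7 were below 0, beside 5206 of all 12529 genes. Both genes of group 8 were above 0, Hoxb8 at 0.32 and Hoxc8 at 0.30. The second Hoxb8 probe was undetected throughout.

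By array, the trunk genes lay close together. Hoxb6 had levels of 1.84 in the triple null pool, 1.99 in MafG-intact E10.5 and 1.83 in MafG-intact E9.5, Hoxc6 had 0.78, 0.92 and 0.84, and Hoxa7 had 1.65, 1.66 and 1.78. Hoxa5 had -0.61, -0.36 and -0.74, Hoxb5 had 0.24, 0.51 and 0.39, and Hoxb7 had 1.03, 1.36 and 1.02. For Hoxa5, Hoxb5, Hoxb6, Hoxb7 and Hoxc6 the MafG-intact E10.5 array was the high one, as it was for Hoxa6 and Hoxc5 below. For Hoxa7 the MafG-intact E9.5 array was the high one. The dimmer Hoxa6 had -3.82, -3.32 and -3.70, Hoxc5 -2.60, -2.51 and -2.79, Hoxb8 -3.97, -4.29 and -4.39, and Hoxc8 -4.15, -4.45 and -3.98. All 14 genes of the class differed by less than 2-fold between any of the arrays.

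Genes numbered 9 to 13, which act in the lumbar, sacral and tail regions and in limbs and genitalia, had a median of -0.15 over the 11 detected on both arrays, or 0.0195 with normexp. With the 4 genes detected on 1 array placed at their bound it was -0.31 over 15. These 4 were detected on the MafG-intact E10.5 array only, so their bounds here could only be negative. Hoxa10 had levels of -0.75 in the triple null pool, -0.02 in MafG-intact E10.5 and -0.64 in MafG-intact E9.5. Hoxa11, which acts in the forearm, kidney and uterus, had -0.26, 0.52 and -0.03. Relative to MafG-intact E10.5, whose array was the high one for both genes, Hoxa10 was lower by 1.66-fold and Hoxa11 by 1.72-fold in triple null embryos.

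Group 9 genes are active from the lower thorax backwards. Hoxa9 had levels of 0.33 in the triple null pool, 0.29 in MafG-intact E10.5 and 0.30 in MafG-intact E9.5, Hoxb9 had 2.59, 2.31 and 2.69, and Hoxc9 had 1.94, 2.09 and 1.90. Hoxd9 had -1.06, -1.43 and -1.01 and was the farthest of the 4 between triple null and MafG-intact E10.5. None of the 4 differed by 1.5-fold in any comparison.

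In the triple null pool Hoxd10 was at -0.31, Hoxd11 at -0.23 and Hoxd13, a gene of digits and genital tubercle, at -0.36 (0.0195 with normexp) relative to MafG-intact E10.5, while Hoxd9 was at 0.37 with both probes alike (0.36 and 0.38). Hoxc10, expressed towards the lumbar cord and hindlimb, went the other way, with levels of -2.73 in the triple null pool, -3.46 in MafG-intact E10.5 and -2.60 in MafG-intact E9.5. Its 2 probes gave 0.58 and 0.89 in the triple null pool relative to MafG-intact E10.5. Hoxa13 was 0.61 higher in the triple null pool, from a dim probe, and 0.19 with its second, undetected probe averaged in. Among posterior genes detected on both arrays, Hoxc10 and Hoxa13 were thus the farthest on the higher side and Hoxa10 and Hoxa11 on the lower.

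The 4 genes detected in the MafG-intact E10.5 pool only belong to groups 12 and 13. Hoxc12 had levels of -8.07 in the triple null pool, -4.67 in MafG-intact E10.5 and -7.39 in MafG-intact E9.5, and was at least 4.85-fold lower in triple null embryos than in MafG-intact E10.5. Hoxb13, which ends the HoxB cluster and limits the length of the tail, had -9.25, -5.39 and -9.19 and was at least 2.95-fold lower. Hoxc13, known for hair and nail, was at least 1.51-fold lower. Hoxd12 was 1.57-fold lower, as set against its own undetected level of -6.80 in the triple null pool. A bound sets the bright array against the higher of the dim probe's own level and the lowest detected level on the dim array, which was -6.95 on the triple null array.

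Of the 37 Hox genes detected on an array of the pair, 4 were so in the MafG-intact pool only, beside 2.87% of all 13085 genes, and 2 had a bound of at least 2-fold, beside 1.03%. None was detected in the triple null pool only, beside 1.38% of all genes, or 0.306% with such a bound. The signals of these 4 genes were small, from 17.3 to 55.6 on the MafG-intact E10.5 array. That array was also the brightest, with a 75th percentile of 1419.9, beside 1077.8 on the triple null and 1063.6 on the MafG-intact E9.5 array. Whether its brightness bears on which genes were detected was not tested. At levels under -6 the spots of probes printed 10 times had a median SD of 0.30 (log2), and from -6 to -3 of 0.11.

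**Figure D3:**
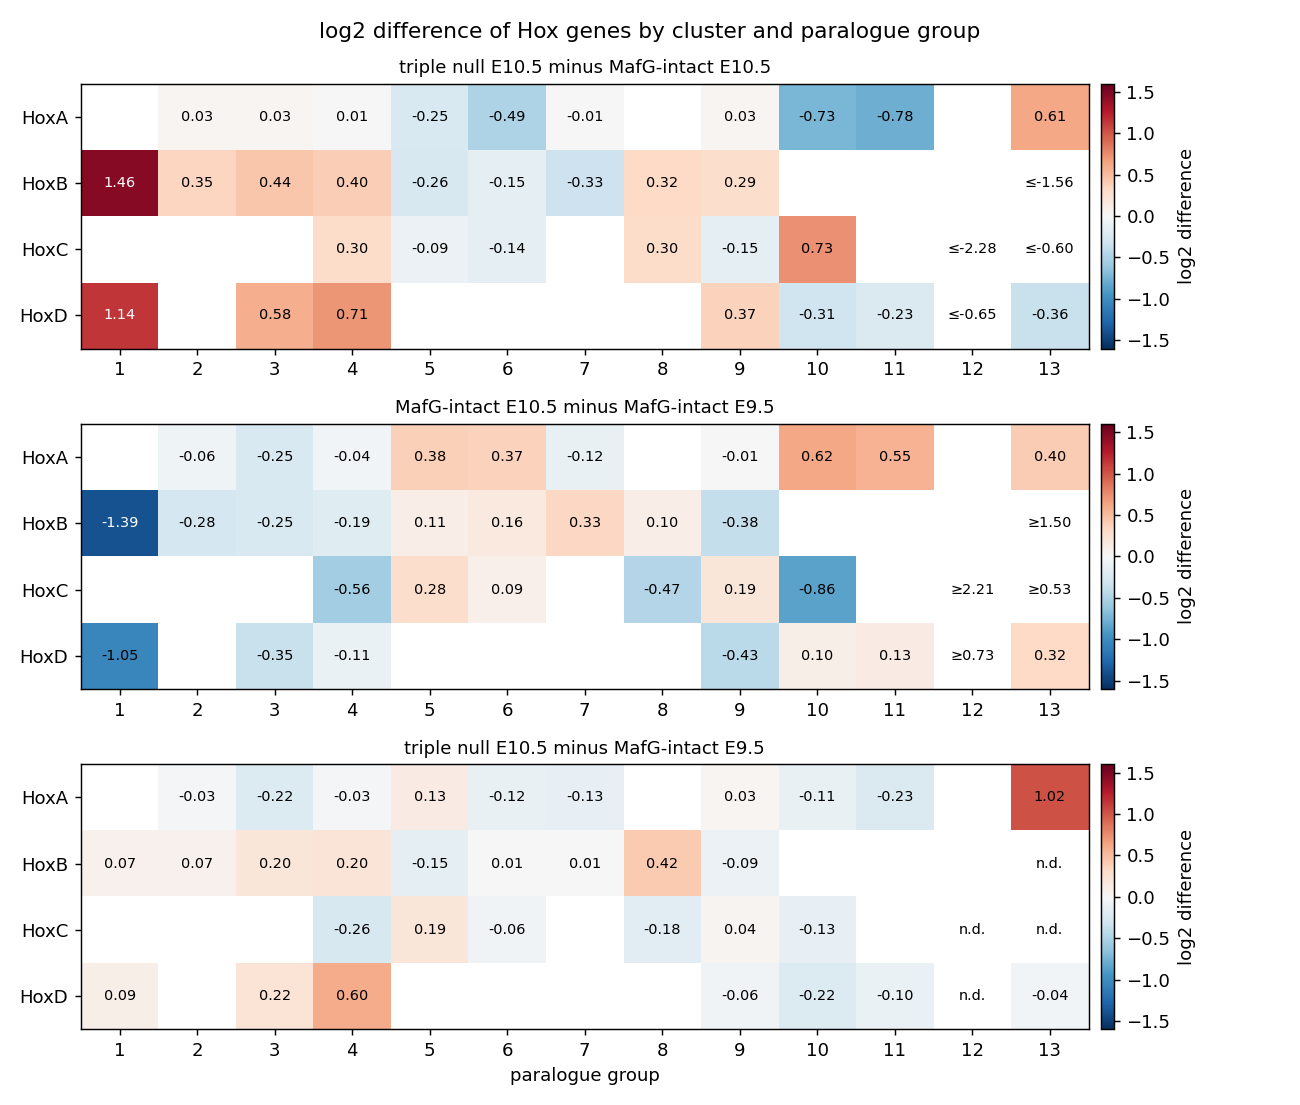
log2 difference of 36 Hox genes (colour and number, scale at the right) by cluster (rows) and paralogue group (columns) in the 3 comparisons, with bounds as ≤ or ≥, "n.d." where neither array detected the gene, and blank cells where no gene is shown. Hoxb1 and Hoxd1 stood at 1.46 and 1.14 in the first grid and at -1.39 and -1.05 in the second.

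By cluster, the median triple null difference from MafG-intact E10.5 was 0.01 for HoxA over 11 genes, 0.32 for HoxB over 9, 0.10 for HoxC over 6 and 0.37 for HoxD over 7. With the 4 genes detected on 1 array at their bound, the median was 0.30 for HoxB over 10 genes. For HoxC it was -0.12 over 8 and for HoxD 0.07 over 8. The sign for HoxC and the order of the clusters thus depended on those genes, whose bounds could only be negative here. The HoxA value is smaller than the shift between scalings. The difference ran downwards with paralogue number, with Spearman's rho of -0.494 and Pearson's r of -0.509 over 33 genes. Without group 1 rho was -0.327 over 30 genes. Within clusters rho was -0.929 for HoxD (7 genes), -0.683 for HoxB (9), -0.373 for HoxA (11) and 0.029 for HoxC (6). These describe genes that share 2 arrays, and genes are not independent replicates.

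**Figure D4:**
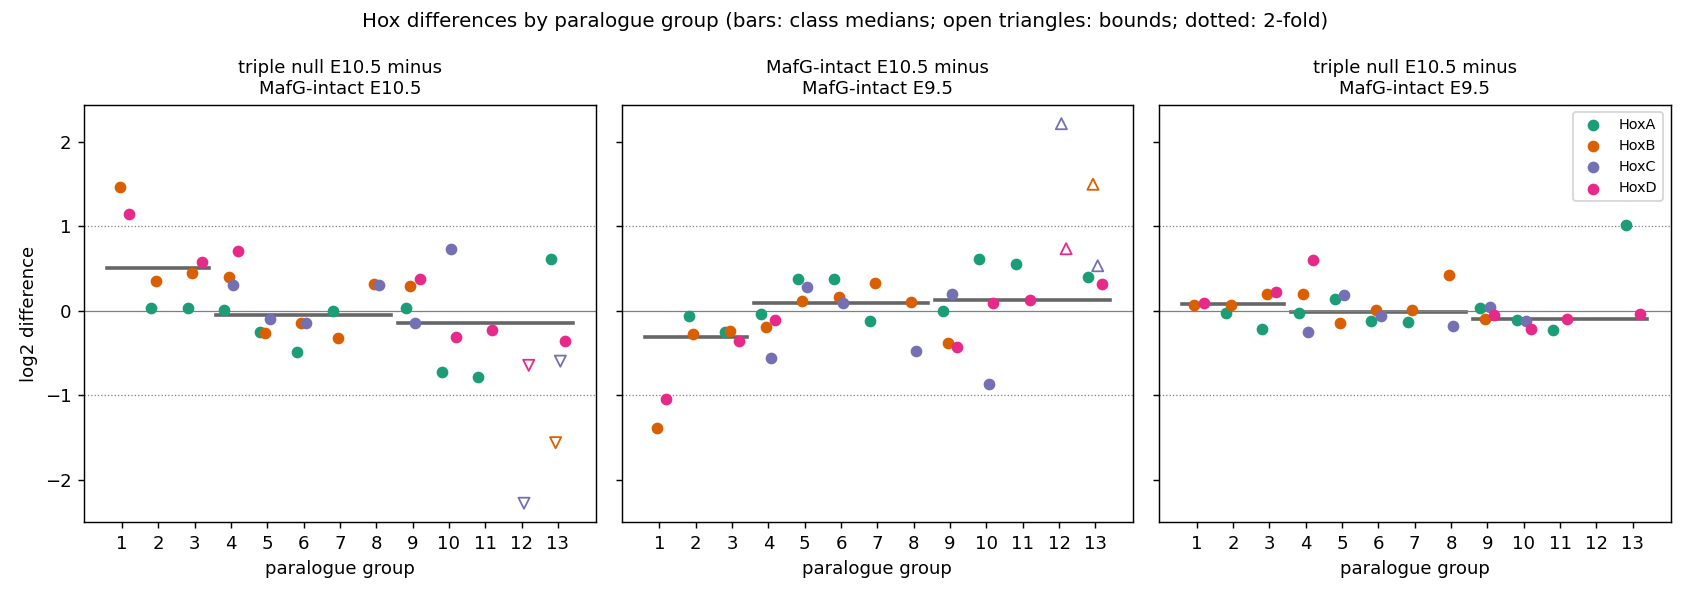
log2 difference (vertical axis) against paralogue group (horizontal axis) for 36 Hox genes in the 3 comparisons, coloured by cluster, with the medians of all genes of a class as bars, bounds as open triangles and dotted lines at 2-fold. The anterior, middle and posterior bars stand at 0.51, -0.05 and -0.15 in the first panel and at -0.32, 0.09 and 0.13 in the second.

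The second comparison sets MafG-intact embryos of E10.5 against those of E9.5, and so follows development by a day where MafG is present. It shares the MafG-intact E10.5 array with the first, so the 2 are not independent, and values are given side by side only. Hoxb1 was lower at E10.5 by 2.62-fold and Hoxd1 by 2.07-fold. Hoxd1 again passed under 2-fold with normexp (-0.94). In all, 3 of 33 Hox genes were 2-fold or more lower, beside 1.07% of all 12514 genes, and none was as much higher, beside 4.12%. At 1.5-fold 4 were lower, beside 4.33%, and 1 higher, beside 9.26%. The median was -0.04 over the 33 genes and -0.05 over all genes.

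All 8 anterior genes were lower at E10.5 than at E9.5, with a median of -0.32. Of all 12514 genes, 7163 were below 0, with a median over all genes of -0.05. Hoxa2, at -0.06, lay close to that median. Middle genes had a median of 0.09 and posterior genes of 0.13, or 0.32 with the 4 genes at their bound. Those 4 were detected at E10.5 only, so their bounds here could only be positive. Hoxa10 was 1.53-fold and Hoxa11 1.47-fold higher at E10.5. Hoxc12 was at least 4.64-fold, Hoxb13 at least 2.82-fold, Hoxd12 at least 1.66-fold and Hoxc13 at least 1.45-fold higher. Of the 37 genes, 4 were detected at E10.5 only, beside 2.99% of all 13096 genes, and 2 had a bound of at least 2-fold, beside 0.985%. None was detected at E9.5 only, beside 1.46%, or 0.443% with such a bound. Of the 11 posterior genes detected on both arrays, 4 lay below 0, which were Hoxc10, 1.82-fold lower at E10.5, Hoxd9 (-0.43), Hoxb9 (-0.38) and Hoxa9 (-0.01, and above 0 with spike-in scaling).

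Set against paralogue number, the difference over this day had Spearman's rho of 0.549 and Pearson's r of 0.550 over 33 genes, and rho of 0.399 without group 1. By cluster rho was 0.893 for HoxD, 0.800 for HoxA, 0.433 for HoxB and -0.257 for HoxC. With normexp the posterior median was -0.003, so that the higher side of the posterior genes detected on both arrays depended on the background correction.

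The third comparison, triple null E10.5 against MafG-intact E9.5, shares an array with each of the others and shows where the triple null pool departed from the younger embryos. Hoxb1 was at 0.07 and Hoxd1 at 0.09. The class medians were 0.08 for anterior, -0.01 for middle and -0.09 for posterior genes. The root mean square log2 difference over the 33 Hox genes was 0.26, beside 0.25 over all genes. The same measure was 0.56 for the Hox genes and 0.51 for all genes in the first comparison, and 0.49 and 0.50 in the second.

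Hoxa13 was the 1 gene of 33 that was 2-fold or more apart in the third comparison, beside 0.256% of all 12521 genes on the higher side and 0.527% on the lower. Its levels were -5.49 in the triple null pool, -6.10 in MafG-intact E10.5 and -6.51 in MafG-intact E9.5, close to background, and it was 2.03-fold higher in the triple null pool than at E9.5. Its second probe, which was undetected, stood at -7.09, -6.84 and -6.81, and Hoxa13 stayed 2-fold apart under 4 of 8 other settings. Hoxd4 came next at 0.60 and Hoxb8 at 0.42. At 1.5-fold 2 genes were higher, beside 1.38%, and none lower, beside 1.65%. No Hox gene was detected on 1 array of this pair only, beside 1.46% of all 12893 genes in the triple null pool only and 1.43% at E9.5 only (0.194% and 0.326% with a bound of at least 2-fold). The farthest on the lower side were Hoxc4 (-0.26), Hoxa11 (-0.23), Hoxa3 (-0.22) and Hoxd10 (-0.22).

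Hox cofactors were read beside their partners. Pbx, Meis and Pknox genes encode homeodomain proteins that bind DNA together with Hox proteins. All 9 were detected on every array and none was 2-fold apart in any comparison. Their median triple null difference from MafG-intact E10.5 was -0.12, with Pknox2 at 0.34 and Pbx3 at -0.23 as the farthest on each side. Over all 12529 genes, 0.982% were 2-fold or more higher in triple null than in MafG-intact E10.5, and 4.47% lower. These shares stand beside the list counts below.

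Cdx genes, which switch on trunk and tail Hox genes, differed more than any Hox gene detected on both arrays. Cdx2 had levels of -0.66 in the triple null pool, -3.94 in MafG-intact E10.5 and -0.96 in MafG-intact E9.5, and Cdx4 had -3.14, -6.56 and -2.98. The MafG-intact E10.5 array was the low one for both. Cdx2 was 9.67-fold and Cdx4 10.7-fold higher in the triple null pool than in MafG-intact E10.5, or 1.66 for Cdx4 on the log2 scale with normexp. Cdx1, undetected in the MafG-intact E10.5 pool, had a bound of at least 4.66-fold in favour of the triple null pool.

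The ParaHox genes Gsx1 and Gsx2, which act in brain and spinal cord progenitors, were lower by 3.90-fold and 2.66-fold in the triple null pool relative to MafG-intact E10.5 (Gsx2 -0.52 with normexp). Pdx1 was undetected throughout. Of the 4 genes of this list detected on both arrays, 2 were 2-fold or more higher and 2 lower, with a median of 0.93, or 2.22 with Cdx1 at its bound. Against MafG-intact E9.5, Cdx2 was at 0.29, Cdx4 at -0.16 and Gsx1 at -0.06 in the triple null pool.

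**Figure D5:**
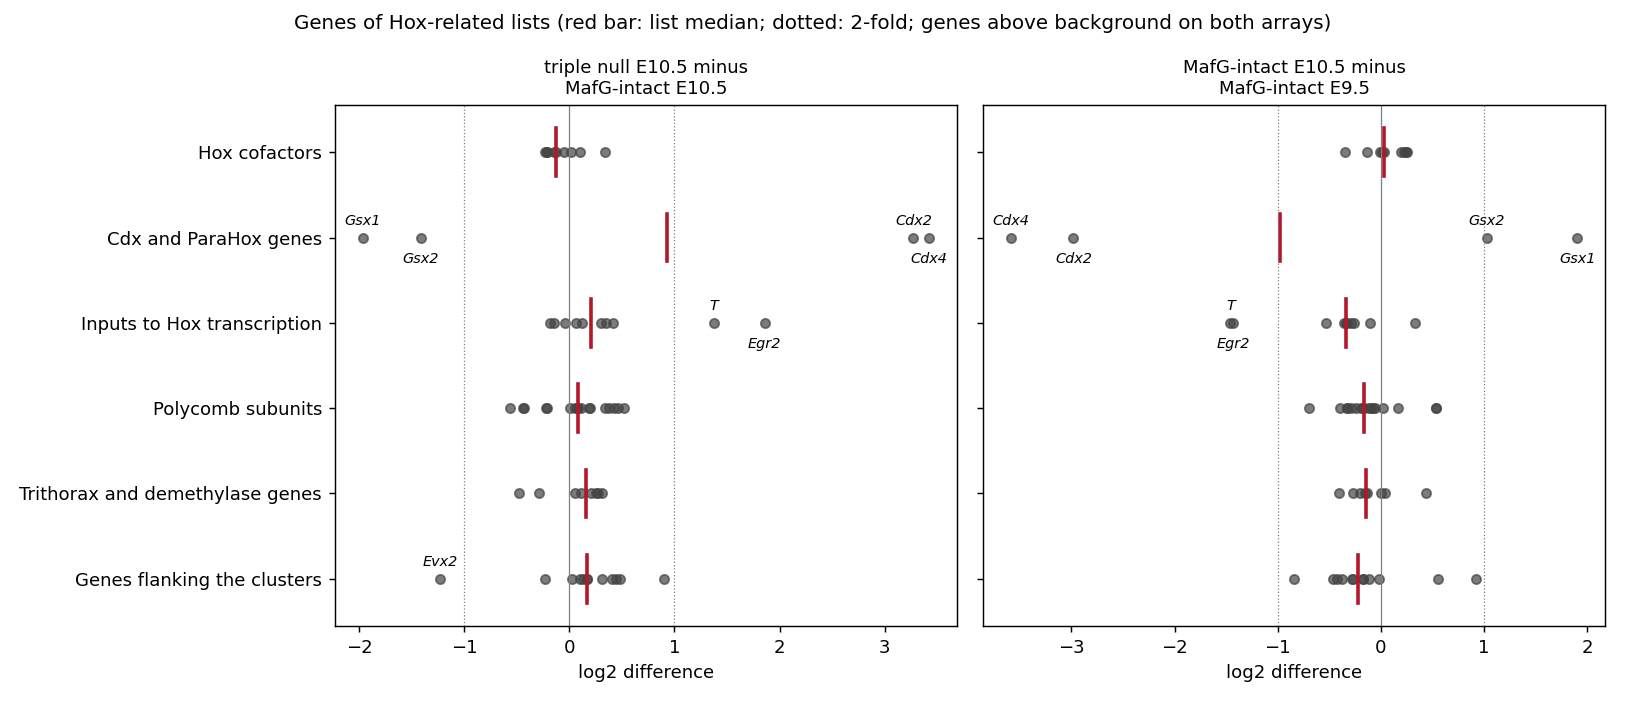
log2 difference (horizontal axis) of the genes of 6 Hox-related lists (rows) detected on both arrays, in the first 2 comparisons, with the list median in red, dotted lines at 2-fold and names for genes past them (medians over all genes of a list, points for those shown). Cdx2 and Cdx4 stand at 3.27 and 3.42 in the triple null pool against MafG-intact E10.5, while the cofactors lie between -0.23 and 0.34.

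Among 12 measured inputs to Hox transcription, 2 were 2-fold or more higher in the triple null pool than in MafG-intact E10.5 and none was as much lower, with a median of 0.21. Egr2, which drives Hoxa2 and Hoxb2 in the odd-numbered hindbrain segments where it is expressed, had levels of -1.78 in the triple null pool, -3.64 in MafG-intact E10.5 and -2.21 in MafG-intact E9.5. It was 3.63-fold higher in the triple null pool than in MafG-intact E10.5. The mesoderm factor T was 2.59-fold higher. Below 2-fold, the retinoic acid enzyme gene Aldh1a2 was at 0.42 and the receptor gene Rarb at -0.19.

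Polycomb proteins keep Hox genes silent and Trithorax proteins keep them active. None of 17 Polycomb genes and none of 8 Trithorax and demethylase genes was 2-fold apart between triple null and MafG-intact E10.5. Their medians were 0.08 and 0.16. Over all genes 0.982% were 2-fold or more higher and 4.47% lower, so lists this short could hold none without differing from other genes. Rbbp4 (-0.56) and Cbx7 (0.52) were the farthest Polycomb genes, and Kdm6a (-0.48) and Wdr5 (0.31) the farthest of the other list. Kdm6a had levels of -0.84 in the triple null pool, -0.36 in MafG-intact E10.5 and -0.80 in MafG-intact E9.5. It was thus highest in the only pool with Xist detected, and the sex of the pools cannot be told apart from the group here. Of 12 measured genes flanking the clusters, Evx2, next to Hoxd13, had a level of -4.78 in the triple null pool and -3.55 in MafG-intact E10.5, a 2.35-fold difference (-0.44 on the log2 scale with normexp), and none was 2-fold higher. Evx1, next to Hoxa13, was 1.87-fold higher, and the list median was 0.17.

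Markers of tissues in the embryo differed beside the Hox genes. Of 6 tail bud and presomitic mesoderm markers detected on both E10.5 arrays, 4 were higher by 2-fold or more in the triple null pool. Over all genes the share was 0.982%. The lists overlap, and T counts both here and among the inputs to Hox transcription above. Egr2 counts both among those inputs and among the hindbrain and spinal cord markers below. Hes7, undetected in MafG-intact E10.5, was 3.52-fold higher in the triple null pool, as set against its own undetected level of -6.95. With normexp 3 of these 4 stayed past 2-fold, and Nkx1-2 stood at 0.81 in place of 1.63. The summed level of the list was 1.81 in the triple null pool, 0.73 in MafG-intact E10.5 and 1.97 in MafG-intact E9.5. A summed level adds the intensities of the detected genes of a list and so follows its brightest genes. Of 6 markers of postmitotic neurons, 4 were lower by 2-fold or more, beside 4.47% of all genes. Their summed levels were 2.56, 4.28 and 2.63 in the same order. The part of either tissue in the Hox differences was not tested.

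Limb bud markers, of a tissue rich in posterior Hox transcripts, had summed levels of 2.73 in the triple null pool, 2.89 in MafG-intact E10.5 and 2.92 in MafG-intact E9.5, and none of 8 was 2-fold apart between triple null and MafG-intact E10.5. Forebrain and midbrain markers, of tissue that lacks Hox transcripts, summed to 3.45, 4.19 and 3.80, with none of the 6 detected on both E10.5 arrays at 2-fold. In MafG-intact embryos their median difference of E10.5 from E9.5 was -0.25, although the sum was higher at E10.5. Hindbrain and spinal cord progenitor markers summed to 2.78, 2.65 and 2.92, with 1 of 6, Egr2, at 2-fold. Trunk mesoderm markers summed to 3.52, 3.20 and 3.74, with none of 6 at 2-fold. Their median triple null difference from MafG-intact E10.5 was -0.09, although the sum was higher in the triple null pool. Yolk sac endoderm markers summed to 3.18, 4.35 and 3.99, mostly from Afp at 3.03, 4.28 and 3.76. In MafG-intact embryos their median difference of E10.5 from E9.5 was -1.165, although the sum was higher at E10.5. Of the 5, 3 were lower by 2-fold or more in the triple null pool than in MafG-intact E10.5, beside 4.47% of all genes. With normexp 1 of these 3, Afp, stayed past 2-fold, and Ttr stood at -0.06 and Apoa1 at -0.35. Placenta markers summed to -2.15, -2.40 and -1.94, with Tpbpa and Gcm1 undetected throughout.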

How the data were processed

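RNA of 3 samples of pooled whole embryos was hybridised to 1-colour Agilent arrays. The authors deposited each spot's background-subtracted intensity on a linear scale, which per the file headers came from protocol GE1-v5_95_Feb07 of Agilent's Feature Extraction software, version 9.5.3.1, on design 014868 annotated with mm7. Their value table holds the same intensity rounded (largest difference 0.497%), with no centring or change of scale between arrays seen. The 0 or 1 marks for background and outliers are the authors' scanner output.

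Here the log2 intensity was taken minus each array's 75th percentile over 43379 non-control spots. Outlier spots (59, 52 and 83) were left out, no spot was saturated, and spots of a probe were averaged. Of 41170 probes, 22950 had 1 gene symbol through RefSeq accessions of GRCm38.p6, which differs from mm7, so the table gave only names, chromosomes and neighbours. Upstream windows are from RefSeq and not from the array. Where a gene had several probes, those detected somewhere were averaged. A gene was called when detected on both arrays and at least 2-fold apart. The rule for named genes took every Hox gene and, from each other list, members at least 2-fold apart or the farthest. The Hox genes and the lists were chosen with earlier results of these data known. Precision is limited by 1 array per group. The steps were tested on simulated data. Alternatives were normexp on the median spot intensity (offset 50), other scalings, probe rules, filters and thresholds, other classes, and brighter genes only, which was added after seeing the data. Python 3.11.15, pandas 2.3.3, numpy 2.4.6, scipy 1.17.1, matplotlib 3.10.9, R 4.3.3 and limma 3.58.1 were used. Individual results of 1 Hox gene and of 2 other genes are not reported here, and counts and medians include them.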

Additional observations from a re-analysis of the deposited data

How the results depend on the processing

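Each comparison was recomputed under 11 alternatives set with the design and 1 added after seeing the data. No Hox or list gene at least 2-fold apart turned its sign under any of them. Hoxb1 stayed at least 2-fold apart in the first 2 comparisons under all 8 alternatives of normalization, probes and filter, and Hoxd1 under 7 of 8, normexp being the exception. No paired analysis was possible because each group has 1 array.

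In the triple null against MafG-intact E10.5, the count of higher Hox genes was 6 at 1.5-fold, 0 at 3-fold and 1 of 15 among brighter genes, and 2 genes were lower at 1.5-fold. The Hox median was -0.0502 with spike-in scaling and -0.14 for brighter genes. The anterior median was 0.42 with normexp, 0.43 with spike-in scaling, 0.39 with the brightest probe, 0.42 with classes 1 to 4, 5 to 9 and 10 to 13, and 0.35 for 3 brighter genes. The middle median was -0.13 with spike-in scaling, -0.12 with the other classes and -0.15 for brighter genes. The posterior median was 0.0195 with normexp, -0.23 with spike-in scaling, -0.31 with the other classes and -0.23 for brighter genes. The rank correlation with paralogue number was -0.67 for brighter genes.

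In MafG-intact E10.5 against E9.5, the count of lower Hox genes was 0 at 3-fold and 1 among brighter genes, and 1 gene was higher at 1.5-fold. The Hox median was 0.0854 for brighter genes. The middle median was 0.0273 with all probes and 0.0052 with normexp, and the posterior median -0.003 with normexp and 0.32 with the other classes. The rank correlation with paralogue number was 0.39 with normexp.

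In the triple null against MafG-intact E9.5, the count of higher Hox genes, Hoxa13 alone, was 0 with normexp, spike-in scaling, scaling on detected genes, all probes, brighter genes and 3-fold, and 2 at 1.5-fold. The rank correlation with paralogue number was -0.61 for brighter genes. Counts over all genes with normexp were 54 higher and 213 lower (123 and 560 as reported) in the first comparison, 200 and 55 (516 and 134) in the second and 10 and 17 (32 and 66) in the third. Normexp moved the median of all genes to 0.11 in the first and -0.10 in the second comparison. Why these values moved was not tested. Signal near background limits groups 12 and 13 and Hoxa13.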

Other observations

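Of the 5 Hox genes with both of their probes above background on all arrays, 3 had both on the same side of 0 in the triple null against MafG-intact E10.5, and Hoxa3 and Hoxa4 did not, by differences of at most 0.11. Hoxb8 and Hoxa13 each had a second probe that was not above background on any array.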
